A study of Mus musculus with 10 samples.

Results

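The genes examined here are 10 genes of innate immune sensing and NF-κB signalling: the Toll-like receptors Tlr2, Tlr3, Tlr4 and Tlr5, the co-receptor Cd14, the adaptor Myd88, the TNF receptors Tnfrsf1a and Tnfrsf1b, and the feedback inhibitors Nfkbia and Tnfaip3. They were taken by gene name from a table of 29868 genes, and all 10 were found. Expression was measured in 10 libraries of C57BL/6 wild-type male mice. At 8 weeks of age their left anterior descending coronary artery had been ligated to cause myocardial infarction (MI). The Nav group, 5 libraries, received navarixin, an oral antagonist of the chemokine receptor CXCR2, at 1 mg/kg once daily for 4 weeks after MI. The MI group, 5 libraries, had the same operation and saline. The day on which the sequenced tissue was taken was not stated. Values are FPKM, which scale a gene's fragments to its length and to the depth of the library. The batch given in the labels equals the group, so the batch and the treatment cannot be told apart. Which mouse each library came from was not stated, so p-values measure only the spread between these libraries, which may be technical.

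Toll-like receptors recognize microbial products and material released by injured cells. CD14 hands lipopolysaccharide to TLR4, MyD88 joins most Toll-like receptors to their kinases, and TLR3, which senses double-stranded RNA, signals through another adaptor. TNF binds its receptors TNFR1, encoded by Tnfrsf1a and found on most cells, and TNFR2, encoded by Tnfrsf1b and found mainly on leukocytes and endothelial cells. Both families activate IκB kinase, which marks the inhibitor IκBα for destruction and frees NF-κB to enter the nucleus. NF-κB then switches on its own brakes, among them Nfkbia, which encodes IκBα, and Tnfaip3, which encodes the ubiquitin-editing enzyme A20. In the infarcted heart this signalling is known for driving cytokine production and the entry of leukocytes.

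The label of the tissue went against its markers. All libraries were labelled as heart, yet each of the 14 heart muscle markers in the table averaged under 1 FPKM, and their sum was 1.88 ± 0.442 FPKM in the Nav group and 2.23 ± 0.629 FPKM in the MI group (SD, n = 5 each). Among the genes with the lowest means were Myh6, Tnnt2 and Nppa. Markers of the kidney's proximal tubule summed to 45908.0 FPKM in the Nav group and 46615.4 FPKM in the MI group. Most of each sum was the gene Kap, at 42606.9 FPKM in the Nav group and 43099.4 FPKM in the MI group. The median of the gene means in this list was 315.4 FPKM. The levels below are therefore levels in the libraries as deposited and not levels shown to be of heart muscle. Depth, estimated from the smallest FPKM steps, was between 16650000 and 20470000 fragments per library. Mitochondrially encoded genes took between 25.98 and 45.41% of summed FPKM in Nav libraries and between 24.44 and 40.55% in MI libraries, with the highest shares in Nav 2, MI 3, Nav 3 and MI 4.

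None of the 5 members that could be tested across all genes passed an adjusted p under 0.05 between the groups. The test, limma on log2(FPKM + 0.5) with Benjamini-Hochberg adjustment, covered the 13412 genes that reached 0.5 FPKM in 5 or more libraries, and 5 members were among them: Tlr3, Cd14, Myd88, Tnfrsf1a and Nfkbia. Over all tested genes, 0.365% passed, 47 lower and 2 higher in the Nav group. These counts moved when 1 library was left out. Without MI 4, 284 genes were lower, and without Nav 4, 39 were lower. When any 1 of Nav 1, Nav 2, Nav 3, Nav 5, MI 1, MI 2, MI 3 and MI 5 was left out, 1 or 2 were lower. The reason was not tested. One tested member, Nfkbia, had an unadjusted p under 0.05 and was lower in the Nav group, beside 11.5% of all tested genes. All 5 tested members had log2 fold changes (Nav minus MI) below 0, as did 71.7% of all tested genes. Their median was -0.33, beside -0.12 for all tested genes, and that median of all tested genes moved to 0.01 when libraries were scaled by median-of-ratios size factors. The other 5 members (Tlr2, Tlr4, Tlr5, Tnfrsf1b and Tnfaip3) were under the filter and were compared with exact 2-sided permutation tests over every split of the libraries into 5 and 5, which can give a p no lower than 0.00794 and were not adjusted. For all 10 members the values of the 2 groups overlapped, while among all tested genes 2.57% were lower in every Nav library than in every MI library.

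**Figure D1:**
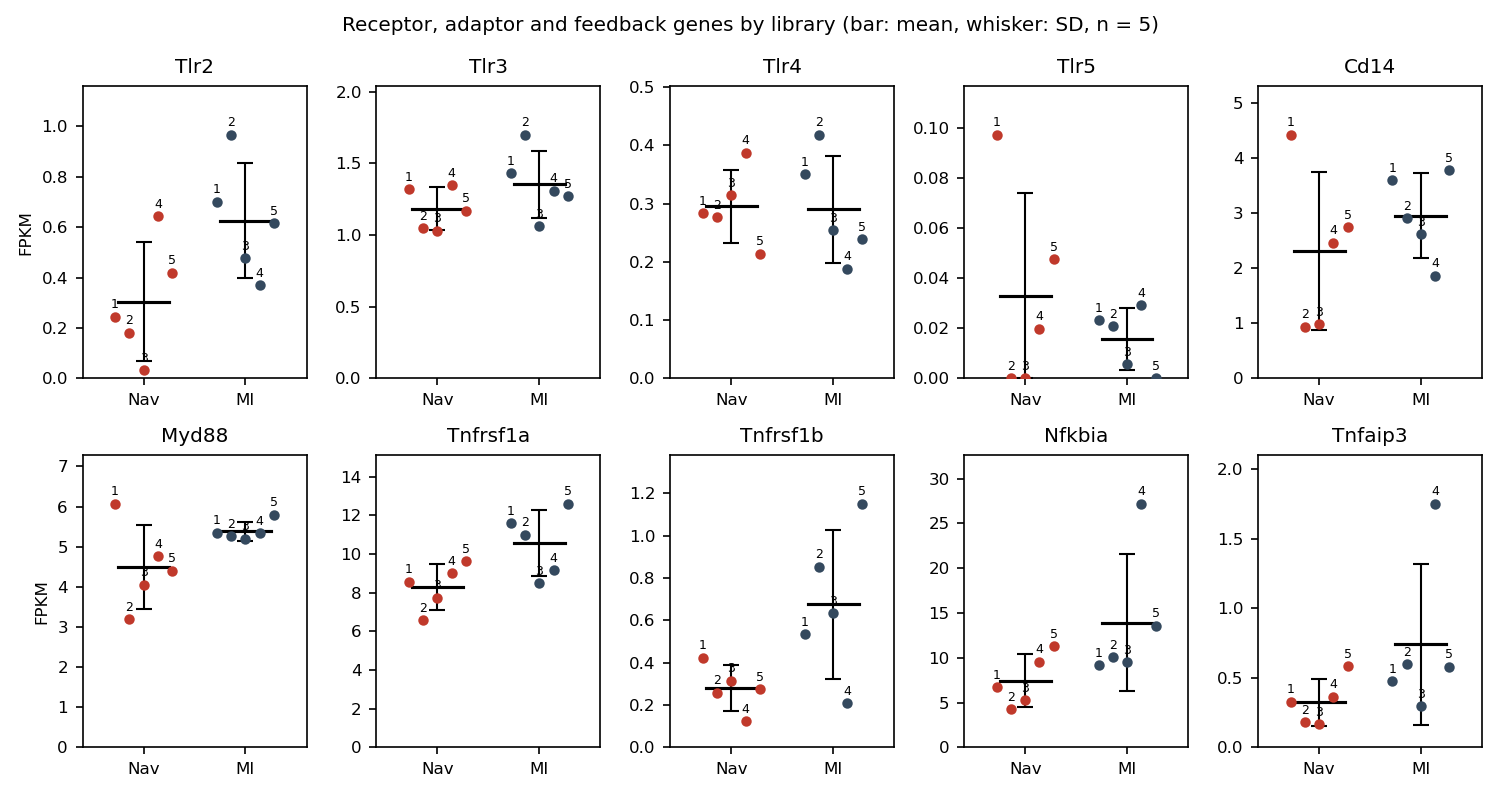
Expression of the 10 genes in FPKM (vertical axes, each starting at 0) in the Nav group (red) and the MI group (blue). Each point is a library with its replicate number, the bar is the mean and the whisker the SD (n = 5). The groups overlap in every panel, and MI 4 stands above the other 4 MI libraries for Nfkbia (27.2 FPKM) and Tnfaip3 (1.75 FPKM).

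Tlr3 was the most abundant of the 4 Toll-like receptors examined and differed little between the groups. Tlr3, the endosomal receptor for double-stranded RNA (ENSMUSG00000031639, mm10, chr8:45395665-45411080), had 1.32, 1.05, 1.03, 1.35 and 1.17 FPKM in Nav libraries 1 to 5, against 1.43, 1.70, 1.06, 1.31 and 1.27 FPKM in MI libraries 1 to 5. Nav 2 and Nav 3 lay just under the lowest MI library, and the other 3 Nav libraries lay within the MI range. The means were 1.19 ± 0.149 FPKM in the Nav group and 1.35 ± 0.236 FPKM in the MI group. The log2 fold change was -0.13 (SE 0.138, limma adjusted p = 0.724), and it was -0.07 without MI 2, -0.02 with size factors and 0.07 under quantile normalization.

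Tlr2, the receptor for bacterial lipoproteins (ENSMUSG00000027995, chr3:83836272-83841767), was scarce. It had 0.245, 0.181, 0.0334, 0.644 and 0.420 FPKM in Nav libraries 1 to 5, against 0.701, 0.967, 0.476, 0.370 and 0.617 FPKM in MI libraries 1 to 5. The first 3 Nav libraries lay below every MI library, whereas Nav 4 exceeded 3 of the MI libraries. These values correspond to an estimated 2 to 35 fragments per Nav library and 21 to 55 per MI library, so counting error is large. On the log2(FPKM + 0.5) scale the difference of means was -0.51 (exact permutation p = 0.0714). It was -0.65 without Nav 4 (exact permutation p = 0.0238) and -0.60 without MI 4 (exact permutation p = 0.0476). It was -0.37 without Nav 3 (exact permutation p = 0.143) and -0.41 without MI 2 (exact permutation p = 0.135). Without the 4 libraries of highest mitochondrial share it was -0.44 (exact permutation p = 0.200), but too few libraries then remained for a permutation p under 0.05. Over all alternatives it lay between -1.01, with 0.1 in place of 0.5 added to FPKM, and -0.33, with 1 added. Both of these ends are on another scale.

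Tlr4, the lipopolysaccharide receptor (ENSMUSG00000039005, chr4:66827584-66930284), had 0.283, 0.277, 0.314, 0.387 and 0.214 FPKM in Nav libraries 1 to 5, against 0.350, 0.418, 0.254, 0.188 and 0.239 FPKM in MI libraries 1 to 5. Every Nav value fell within the MI range, and the means were 0.295 ± 0.0631 FPKM in the Nav group and 0.290 ± 0.0926 FPKM in the MI group. The difference of 0.01 on the log2(FPKM + 0.5) scale was smaller than the spread (exact permutation p = 0.865), and its sign turned with the scaling and with the libraries kept. Tlr5, the flagellin receptor (ENSMUSG00000079164, chr1:182954788-182976044), was listed at 0.0973, 0, 0, 0.0199 and 0.0477 FPKM in Nav libraries 1 to 5, against 0.0233, 0.0208, 0.00573, 0.0293 and 0 FPKM in MI libraries 1 to 5. At an estimated 0 to 8 fragments per Nav library and 0 to 3 per MI library, no difference in Tlr5 was detectable at this depth (exact permutation p = 0.524).

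Cd14 (ENSMUSG00000051439, chr18:36725067-36726798), whose product presents lipopolysaccharide to TLR4, varied more in the Nav group than in the MI group. It had 4.43, 0.943, 0.987, 2.47 and 2.75 FPKM in Nav libraries 1 to 5, against 3.60, 2.91, 2.62, 1.87 and 3.78 FPKM in MI libraries 1 to 5. Nav 1 was the highest of all 10 libraries, while Nav 2 and Nav 3 were the lowest and lay below every MI library. After rescaling to a common sum without mitochondrially encoded genes, Nav 2 and Nav 3 stood at 0.914 and 0.960 FPKM. The means were 2.31 ± 1.44 FPKM in the Nav group and 2.96 ± 0.770 FPKM in the MI group, with a log2 fold change of -0.42 (SE 0.316, limma adjusted p = 0.595). It was -0.67 without Nav 1, -0.22 without Nav 2, -0.23 without Nav 3 and -0.11 without the 4 libraries of highest mitochondrial share, and none of these passed.

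Myd88 (ENSMUSG00000032508, chr9:119335934-119340041), the adaptor shared by most Toll-like receptors and the interleukin-1 receptor, was nearly constant in the MI group. It had 6.07, 3.19, 4.05, 4.77 and 4.40 FPKM in Nav libraries 1 to 5, against 5.35, 5.26, 5.20, 5.34 and 5.80 FPKM in MI libraries 1 to 5. Nav 1 lay above every MI library and the other 4 Nav libraries lay below every one. The means were 4.50 ± 1.06 FPKM in the Nav group and 5.39 ± 0.235 FPKM in the MI group. The log2 fold change was -0.26 (SE 0.154, limma adjusted p = 0.490). It was -0.37 without Nav 1 and -0.16 without Nav 2. It was -0.12 with size factors, and -0.11 under quantile normalization and also without the 4 libraries of highest mitochondrial share. Myd88 overlaps Acaa1a on the opposite strand, a gene at up to 34.6 FPKM in these libraries, and Slc22a14 on its own strand, at up to 0.31 FPKM. Whether the quantification used strand was not stated, so the values of Myd88 are uncertain.

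The 2 TNF receptors differed in abundance, and both had lower means in the Nav group without passing the adjusted threshold. Tnfrsf1a (ENSMUSG00000030341, chr6:125349362-125361874), which encodes the receptor with a death domain, had 8.57, 6.59, 7.75, 9.02 and 9.64 FPKM in Nav libraries 1 to 5, against 11.6, 11.0, 8.49, 9.16 and 12.6 FPKM in MI libraries 1 to 5. Nav 2 and Nav 3 lay below every MI library, and the other 3 Nav libraries exceeded MI 3. The means were 8.32 ± 1.18 FPKM in the Nav group and 10.6 ± 1.72 FPKM in the MI group. The log2 fold change was -0.33 (SE 0.152, limma adjusted p = 0.394, unadjusted p = 0.0511). The unadjusted limma p was under 0.05 in 8 of the 22 alternatives, and the adjusted p passed in 0 of them. Scaling by size factors reduced the log2 fold change to -0.18 (limma adjusted p = 0.357) and also reduced the spread. Tnfrsf1a then lay between 8.27 and 9.01 in Nav libraries and between 9.24 and 11.6 in MI libraries. It was then the 1 member whose groups did not overlap, beside 2.07% of all tested genes under that scaling that were lower in every Nav library.

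Tnfrsf1b (ENSMUSG00000028599, chr4:145213463-145246870), which encodes TNFR2, had 0.423, 0.258, 0.315, 0.125 and 0.276 FPKM in Nav libraries 1 to 5, against 0.534, 0.853, 0.632, 0.210 and 1.15 FPKM in MI libraries 1 to 5. Of the MI libraries, 4 lay above every Nav library, and MI 4 lay below all but Nav 4. The means were 0.279 ± 0.108 FPKM in the Nav group and 0.675 ± 0.350 FPKM in the MI group. The difference on the log2(FPKM + 0.5) scale was -0.55 (exact permutation p = 0.0476, unadjusted), and with no filter on low values the limma adjusted p was 0.459. Without MI 4 the difference was -0.72 (exact permutation p = 0.00794, the smallest that 5 against 4 libraries can give). The unadjusted p stayed under 0.05 in 4 of 15 alternatives. It lay between 0.0635 and 0.0952 (exact permutation) when any 1 of Nav 2, Nav 3, Nav 4, Nav 5, MI 1, MI 2, MI 3 and MI 5 was left out. Among the 15 alternatives, the setting without the 4 libraries of highest mitochondrial share kept too few libraries for a permutation p under 0.05.

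**Figure D2:**
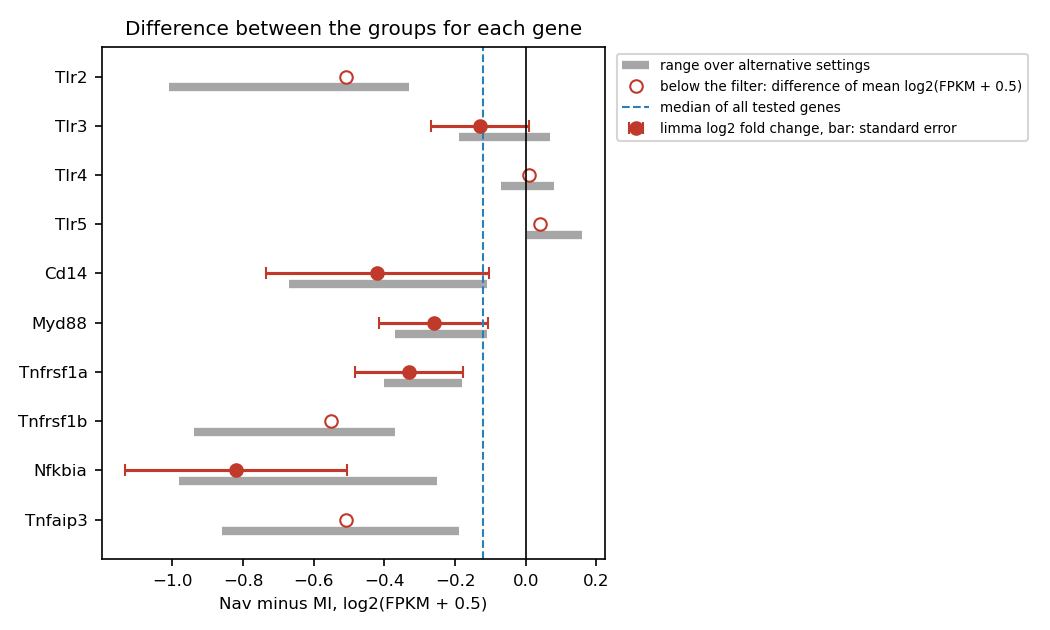
Difference between the groups (Nav minus MI, horizontal axis, log2(FPKM + 0.5) scale) for each gene. Filled points with bars are limma log2 fold changes with their standard errors, and open points are differences of means of genes under the filter. Grey bars span the alternative settings, including those with 0.1 or 1 in place of 0.5 added to FPKM, which are on another scale. The dashed line marks the median of all tested genes, -0.12. The points of 8 genes lie below 0, and those of Tlr4 (0.01) and Tlr5 (0.04) lie at or just above it.

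The feedback inhibitors Nfkbia and Tnfaip3 had lower means in the Nav group, and their highest values were in 1 MI library. Their promoters are shown because both genes are textbook targets of NF-κB, and the promoter of Tlr2 is shown as 1 of the 2 receptors with a match, the other being Tlr3, since its matches overlap. The sequences are the 250 bases before the gene start in RefSeq (GRCm38.p6), read 5′ to 3′ on the gene's strand, which is the minus strand for each: Nfkbia at chr12:55492648-55492897, Tnfaip3 at chr10:19015411-19015660 and Tlr2 at chr3:83841609-83841858. Capitals mark matches, on either strand, to the 10-base κB consensus, and in Tlr2 they join overlapping matches.
Nfkbia: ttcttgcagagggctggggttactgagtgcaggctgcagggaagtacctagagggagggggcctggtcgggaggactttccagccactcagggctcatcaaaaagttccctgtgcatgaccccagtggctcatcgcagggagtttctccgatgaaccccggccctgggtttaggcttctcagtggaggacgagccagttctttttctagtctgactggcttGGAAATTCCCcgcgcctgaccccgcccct
Tnfaip3: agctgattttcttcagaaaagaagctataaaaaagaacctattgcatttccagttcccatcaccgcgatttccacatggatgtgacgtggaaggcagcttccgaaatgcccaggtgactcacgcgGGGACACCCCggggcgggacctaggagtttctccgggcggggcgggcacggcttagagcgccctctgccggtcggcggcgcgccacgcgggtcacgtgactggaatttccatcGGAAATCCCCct
Tlr2: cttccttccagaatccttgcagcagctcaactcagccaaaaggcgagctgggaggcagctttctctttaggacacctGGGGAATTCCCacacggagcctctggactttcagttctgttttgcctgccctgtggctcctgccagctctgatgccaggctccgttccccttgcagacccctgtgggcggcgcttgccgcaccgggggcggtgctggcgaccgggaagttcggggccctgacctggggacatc
The match of Nfkbia lay from -29 to -20 relative to the gene start, and those of Tnfaip3 from -125 to -116 and from -12 to -3. The joined matches of Tlr2 lay from -173 to -163, and part of this window lies within the gene as the deposited table gives it, since the starts differ. RefSeq gave 9 promoters for 8 members, all but Tlr4 and Cd14, and 4 of the 9 held a match, those of Nfkbia, Tlr2, Tlr3 and the Tnfaip3 promoter shown. The other Tnfaip3 promoter held none. Of all 32851 promoters in the table, 7.25% held one. A match describes these letters only and does not show binding.

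Nfkbia (ENSMUSG00000021025, chr12:55489410-55492647) had 6.72, 4.26, 5.27, 9.59 and 11.3 FPKM in Nav libraries 1 to 5, against 9.21, 10.1, 9.51, 27.2 and 13.6 FPKM in MI libraries 1 to 5. The first 3 Nav libraries lay below every MI library, Nav 4 and Nav 5 lay within the MI range, and MI 4 was 2.00-fold above the next highest library. The means were 7.42 ± 2.94 FPKM in the Nav group and 13.9 ± 7.61 FPKM in the MI group. The log2 fold change was -0.82 (SE 0.314, unadjusted p = 0.0221, limma adjusted p = 0.312). It was -0.55 without MI 4 (limma adjusted p = 0.433) and -0.25 without the 4 libraries of highest mitochondrial share (limma adjusted p = 0.516), and -0.37 with array weights (limma adjusted p = 0.412). It was -0.98 without Nav 5 (limma adjusted p = 0.225). The unadjusted limma p was under 0.05 in 18 of the 22 alternatives, and the adjusted p passed in 0 of them.

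Tnfaip3 (ENSMUSG00000019850, chr10:19000910-19015410) had 0.328, 0.183, 0.165, 0.364 and 0.583 FPKM in Nav libraries 1 to 5, against 0.474, 0.597, 0.297, 1.75 and 0.580 FPKM in MI libraries 1 to 5. MI 4 was 2.94-fold above the next highest library, and only Nav 2 and Nav 3 lay below every MI library. The means were 0.325 ± 0.169 FPKM in the Nav group and 0.740 ± 0.579 FPKM in the MI group. The difference on the log2(FPKM + 0.5) scale was -0.51 (exact permutation p = 0.0952), and without MI 4 it was -0.27 (exact permutation p = 0.183). Without the 4 libraries of highest mitochondrial share it was -0.19 (exact permutation p = 0.300), but too few libraries then remained for a permutation p under 0.05. Without MI 3 it was -0.65 (exact permutation p = 0.0317) and without Nav 5 it was -0.62 (exact permutation p = 0.0476).

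The library with the highest value differed between members. MI 4, highest for Nfkbia and Tnfaip3, was the lowest of all 10 libraries for Tlr4 and the lowest of the MI group for Tlr2, Cd14 and Tnfrsf1b. MI 2 was highest for Tlr2, Tlr3 and Tlr4, MI 5 for Tnfrsf1a and Tnfrsf1b, and Nav 1 for Tlr5, Cd14 and Myd88. Nav 2 and Nav 3, which are among the 4 libraries of highest mitochondrial share, both lay below every MI library for 7 members, the 5 tested members among them, and for 32.2% of all tested genes. After rescaling without mitochondrially encoded genes the count was again 7, beside 35.1% of all tested genes. With size factors it was 5, without Tlr3 and Myd88, beside 12.6% of all tested genes. Nav 2 was the lowest library for 4 of the 5 tested members, and also for 44.6% of all tested genes. The part of these library differences in the members' values was not tested.

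Other genes of the same pathways were read from 7 lists. No gene of 6 of these lists passed the adjusted threshold in limma, and counts at an unadjusted p under 0.05, given below, were all of genes lower in the Nav group. Medians of log2 fold changes are to be read beside -0.12 for all tested genes. The counts are to be read beside the 11.5% of all tested genes that were lower in the Nav group at an unadjusted p under 0.05. Of 15 further Toll-like receptors and co-receptors, 5 were tested, with a median of -0.10 and 1 at an unadjusted p under 0.05, Unc93b1. Tlr12, which in mice senses profilin, averaged 5.52 ± 1.38 FPKM in the Nav group and 6.24 ± 2.83 FPKM in the MI group (log2 fold change -0.10, limma adjusted p = 0.909). The chaperones of Toll-like receptors Hsp90b1 (log2 fold change 0.01) and Cnpy3 (-0.14) also did not pass. Tlr1, Tlr6, Tlr7, Tlr8, Tlr9, Tlr11 and Tlr13 were under the filter. Unc93b1, which carries endosomal Toll-like receptors to their compartment and was singled out after its values were seen, had 2.55, 0.964, 0.991, 2.38 and 2.52 FPKM in Nav libraries 1 to 5, against 3.97, 4.18, 3.74, 2.17 and 4.43 FPKM in MI libraries 1 to 5. Every MI library but MI 4 lay above every Nav library, and the log2 fold change was -0.87 (SE 0.254, limma adjusted p = 0.172). It was -1.02 without MI 4 (limma adjusted p = 0.0489) and -0.65 without the 4 libraries of highest mitochondrial share (limma adjusted p = 0.0261). Unc93b1 passed only in these 2 of the 22 alternatives. Of 18 adaptors and kinases below these receptors, 14 were tested, with a median log2 fold change of -0.20 and 2 at an unadjusted p under 0.05. The most abundant were Irak1 (-0.32), a kinase recruited by MyD88, Tab2 (-0.26), which binds ubiquitin chains, and Tollip (-0.05), which restrains IRAK1.

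Of the TNF ligands and receptor superfamily, 31 were in the table and 8 were tested, with a median log2 fold change of -0.12. Of these 8, 1 had an unadjusted p under 0.05, beside 11.5% of all tested genes lower at that threshold. Tnf itself averaged 0.00681 FPKM in the Nav group and 0.0710 FPKM in the MI group and did not exceed 0.198 FPKM in any library, which is too low for this depth to show a difference. Tnfrsf21, death receptor 6, had a log2 fold change of 0.30, the lymphotoxin β receptor Ltbr -0.19 and the ligand Tnfsf10 (TRAIL) -0.47, with limma adjusted p of 0.438, 0.621 and 0.227. The signalling proteins of the TNF receptors, 13 tested of 16 and 0 at an unadjusted p under 0.05, had a median of -0.24, with Casp8 at -0.18, Cflar at -0.21 and Rbck1, a subunit of the linear ubiquitin ligase, at -0.36. The IκB kinase and NF-κB subunits, 7 tested of 8 and 2 at an unadjusted p under 0.05, had a median of -0.27. The kinase subunit Chuk had a log2 fold change of -0.21, the scaffold Ikbkg -0.20 and the subunit Rela -0.29.

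The remaining inhibitors and feedback genes of NF-κB, 17 tested of 20, had a median log2 fold change of -0.22. Of the 17, 4 had an unadjusted p under 0.05, all lower in the Nav group, beside 11.5% of all tested genes. The 3 most abundant were Rnf11, an adaptor of the A20 complex (0.08), Tax1bp1, which brings A20 to its targets (-0.08), and Sigirr, an inhibitory receptor (-0.20). Of the 17 genes, 1 had its highest value in MI 4 as Nfkbia and Tnfaip3 did: Nfkbiz, which encodes the atypical nuclear protein IκBζ, had 1.91, 0.513, 0.598, 1.55 and 2.10 FPKM in Nav libraries 1 to 5, against 1.80, 1.48, 3.52, 5.09 and 2.20 FPKM in MI libraries 1 to 5. This gene was singled out after its values were seen. Over all tested genes, 8.57% had their highest value in MI 4.

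**Figure D3:**
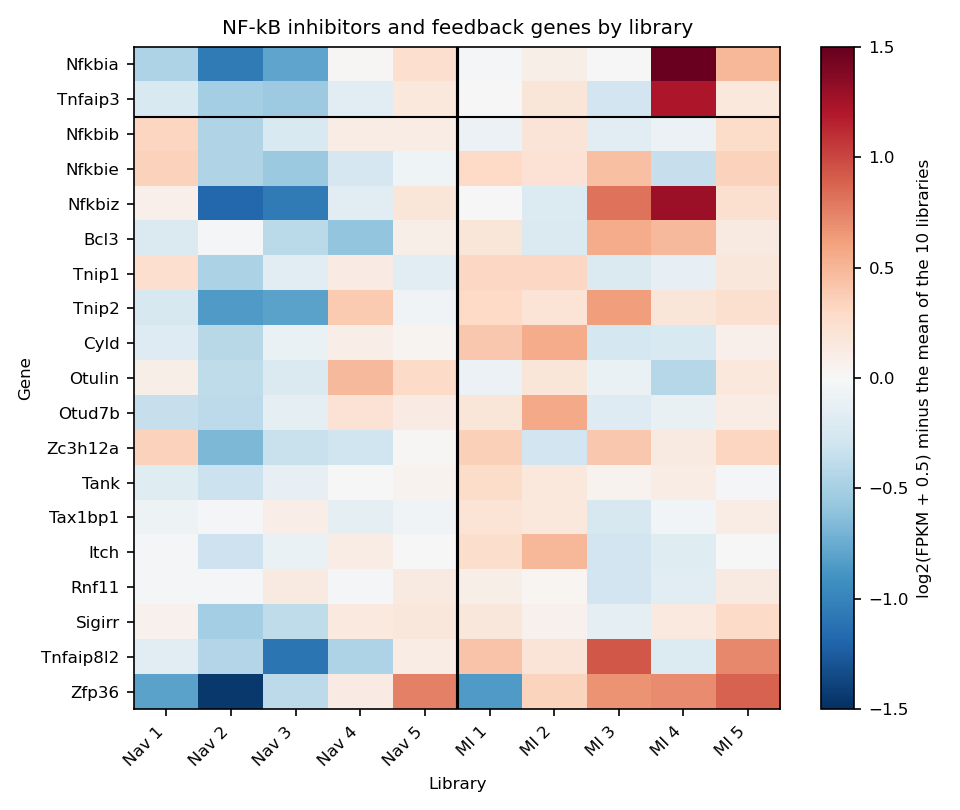
Inhibitors and feedback genes of NF-κB (rows, with Nfkbia and Tnfaip3 above the horizontal line and the 17 tested genes of the list below it) in the Nav libraries (left) and the MI libraries (right). Colour gives log2(FPKM + 0.5) minus the mean of the 10 libraries, from -1.5 (blue) to 1.5 (red). MI 4 is the reddest column for Nfkbia, Tnfaip3 and Nfkbiz and is near 0 or blue for most of the other genes.

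Among the target genes of NF-κB, 3 of the 20 tested passed the adjusted threshold, all lower in the Nav group, beside 0.365% of all tested genes. An unadjusted p under 0.05 was reached by 8, all lower in the Nav group, beside 11.5% of all tested genes. The list's median log2 fold change was -0.50. This list was chosen with earlier results of these data known, so its counts beside all tested genes, here and below, are description only. Il6, interleukin-6, averaged 2.42 ± 0.812 FPKM in the Nav group and 11.3 ± 3.84 FPKM in the MI group (log2 fold change -2.00, SE 0.242, limma adjusted p = 0.00882). Il1b, interleukin-1β, averaged 0.480 ± 0.167 FPKM in the Nav group and 3.21 ± 1.59 FPKM in the MI group (-1.83, SE 0.258, limma adjusted p = 0.0293). Cxcl1, a neutrophil chemokine that binds CXCR2, averaged 0.489 ± 0.184 FPKM in the Nav group and 6.31 ± 5.84 FPKM in the MI group (-2.48, SE 0.395, limma adjusted p = 0.0317). Its MI values were 2.05, 4.86, 4.26, 16.6 and 3.80 FPKM in libraries 1 to 5, so that MI 4 was again the highest. Il1b was also highest in MI 4 (5.69 FPKM), whereas Il6 had its lowest MI value there (8.32 FPKM). Of the 20 tested targets, 6 had their highest value in MI 4, beside 8.57% of all tested genes. The count of 3 was 0 with no filter on low values and 1 when any of Nav 1, Nav 2, Nav 3, Nav 5, MI 3 or MI 5 was left out. Il6 passed in 21 of the 22 alternatives, Il1b in 13 and Cxcl1 in 11.

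Markers of other cell types were summed in each library, and none of the 9 lists passed an adjusted p under 0.05 between the groups. The permutation p can be no lower than 0.00794. After adjustment over 9 lists, a list that alone separated the groups fully could not have passed, so the lack of a pass decides little. In bulk libraries, fewer cells of a type and less RNA per cell cannot be told apart. Counts of markers with lower means are to be read beside the 71.7% of all tested genes with log2 fold changes below 0. Markers of monocytes and macrophages, cells that carry Cd14, Tlr2 and Tnfrsf1b, summed to between 16.2 and 36.4 FPKM in Nav libraries and between 29.8 and 89.2 FPKM in MI libraries, and all 14 had lower means in the Nav group (exact permutation p = 0.0238, adjusted over 9 marker lists p = 0.107). Endothelial markers summed to between 21.1 and 52.2 FPKM in Nav libraries and between 39.8 and 97.1 FPKM in MI libraries, with all 12 lower in the Nav group (exact permutation p = 0.0159, adjusted p = 0.107). Lymphocyte markers, all 12 with means under 1 FPKM, summed to between 1.28 and 2.64 FPKM in Nav libraries and between 0.894 and 7.20 FPKM in MI libraries (exact permutation p = 0.0476, adjusted p = 0.143). Neutrophil markers, 8 of 12 in the table, summed to between 1.40 and 3.48 FPKM in Nav libraries and between 1.26 and 7.67 FPKM in MI libraries (exact permutation p = 0.111, adjusted p = 0.250), and Cxcr2, Ngp, Ltf and Mmp8 were among those of lowest mean.

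Fibroblast and mural markers summed to 44.6 ± 22.1 FPKM in the Nav group and 34.9 ± 10.9 FPKM in the MI group (exact permutation p = 0.444). Of the 10, 7 had lower means in the Nav group, near the 71.7% of all tested genes with log2 fold changes below 0. Their median log2 fold change was -0.50, beside -0.12 for all tested genes. The sum was carried by the contractile genes Acta2, at 16.7 FPKM in the Nav group and 5.49 FPKM in the MI group, and Tagln, at 13.9 FPKM in the Nav group and 9.73 FPKM in the MI group. MI 4 had the lowest sum of the MI group for the macrophage, endothelial, lymphocyte and neutrophil lists. The same held for the fibroblast and mural list (18.4 FPKM in MI 4), but not for the remaining lists. Nfkbia, Tnfaip3, Il1b and Cxcl1 had their highest values in MI 4, whereas Il6 had its lowest MI value there. These genes were set beside the markers after their values were seen. Urothelial markers summed to 165.6, 21.6, 21.7, 188.6 and 190.9 FPKM in Nav libraries 1 to 5, against between 33.4 and 46.9 FPKM in MI libraries (exact permutation p = 0.167). Nav 2 and Nav 3 lay below every MI library, and Nav 1, Nav 4 and Nav 5 lay well above every one. Of the 8 markers, 0 had a lower mean in the Nav group. The part of these marker differences in the values of the 10 genes was not tested.

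**Figure D4:**
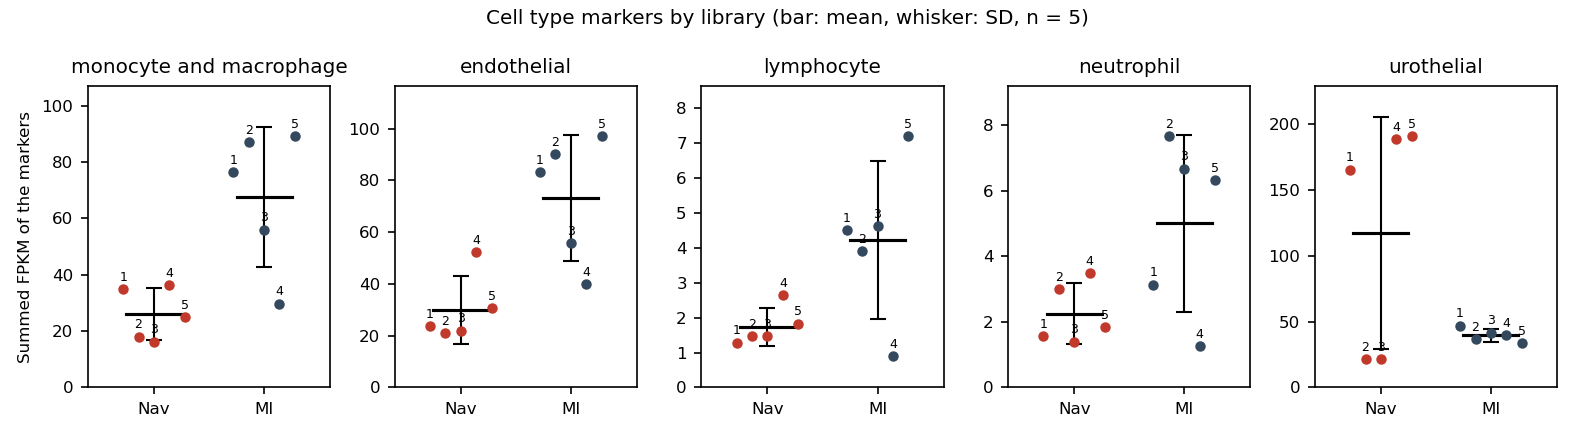
Summed FPKM of cell type markers (vertical axes, each starting at 0) in the Nav group (red) and the MI group (blue). Each point is a library with its replicate number, the bar is the mean and the whisker the SD (n = 5). MI 4 is the lowest MI point for monocyte and macrophage (29.8 FPKM), endothelial (39.8 FPKM), lymphocyte (0.894 FPKM) and neutrophil (1.26 FPKM) markers.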

How the data were processed

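Polyadenylated RNA was sequenced as strand-marked paired ends. Per the methods and the submitters' processing notes, the authors trimmed reads with cutadapt 1.9, aligned them to mm10 with HISAT2 2.0.4 and quantified genes with StringTie 1.3.4d. The values the authors deposited are FPKM. Their own tests, with DESeq2 and edgeR, need counts and were not used here. The release of the gene annotation was not stated in the sources used here.

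Groups and replicate numbers came from the labels. Because depth enters the scaling, very abundant transcripts can lower the FPKM of other genes. Summed FPKM differed between libraries, from 447944 in MI 2 to 650101 in Nav 2, the library of highest mitochondrial share. Whether mitochondrial transcripts lowered the values of other genes in these libraries was not tested. Fragments were estimated from the steps between low FPKM values, and the numbers of fragments given are estimates. No pair of libraries correlated above 0.985. Genes that reached 0.5 FPKM in 5 or more libraries were kept, log2(FPKM + 0.5) was fitted with limma 3.58.1 in R 4.3.3 (lmFit, eBayes with trend and robust prior), and p-values were adjusted over all 13412 tested genes. Fold changes on this scale understate the change of low genes. Members under the filter and marker sums were compared with exact 2-sided permutation tests. Promoters came from the RefSeq table of GRCm38.p6. The κB consensus was searched on both strands of the 250 bases before each start, and with the 50 bases after the start included the same 4 members held it, beside 8.46% of all promoters. Alternatives changed the pseudocount, the filter and the scaling, used a replicate block, a mitochondrial covariate, array weights or another eBayes prior, or left out libraries.

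The members, the lists and the alternatives were chosen with earlier results of these data known. Every member was named. Of each list, the genes past an adjusted p under 0.05 were named, up to 4, or the 3 tested genes of highest mean where fewer than 2 passed.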

Additional observations from a re-analysis of the deposited data

Results flagged for a closer look

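Of the 20 groups of 5 libraries examined, 3 held a library far from the others of its group. A rate of about 1 in 20 by chance holds only for independent, normally distributed values, which these FPKM were not shown to be. The share of all tested genes under the same rule is not given here, so no excess over chance was measured. Nfkbia reached 27.2 FPKM in MI 4, with a gap to the next MI library of 0.756 of the group's whole range. Tnfaip3 reached 1.75 FPKM in the same library, with a gap of 0.794 of the range. Myd88 reached 5.80 FPKM in MI 5, with a gap of 0.753 of the range, in a group whose values otherwise lay between 5.20 and 5.35 FPKM.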

How the results depend on the processing

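None of the 5 members tested with limma passed the adjusted threshold under any of the 22 alternatives, and the other 5, which had an adjusted p only with no filter, did not pass there. The adjusted p of the 5 tested members lay between 0.123 (Tnfrsf1a with array weights) and 0.956 (Tlr3). The signs of Cd14, Myd88, Tnfrsf1a and Nfkbia held throughout. Tlr3 turned to 0.07 under quantile normalization. Tlr4 turned to -0.01 after rescaling without mitochondrially encoded genes and to -0.07 without the 4 libraries of highest mitochondrial share, and lay between -0.03 and 0.07 with 1 library left out. The cause was not tested. Permutation tests were run only for alternatives that keep single values per library, and not for quantile normalization, the replicate block, the covariate, array weights or the other prior.

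Over all tested genes, 47 were lower and 2 higher in the Nav group. These counts were 0 and 0 with no filter on low values, 2 and 1 under quantile normalization, 81 and 10 with the mitochondrial covariate, 249 and 107 without the 4 libraries of highest mitochondrial share, and 321 and 57 with array weights. With size factors, 50 genes were lower and 12 higher. With 1 library left out, between 1 and 284 genes were lower and between 0 and 8 higher, the highest counts without MI 4. Of the genes in the 7 lists, 3 were lower. This count was 0 with no filter, 1 under quantile normalization, 5 with array weights and between 1 and 5 with 1 library left out, again highest without MI 4.

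Same-numbered libraries did not deviate together, with correlations between -0.22 and 0.05, and 1 of 10 libraries correlated best with its own number. With the replicate block, 5 genes were lower and 1 higher, and none of the 5 members tested passed. Precision is limited by 5 libraries per group and by the few fragments of Tlr2, Tlr4, Tlr5, Tnfrsf1b and Tnfaip3.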
